A study of Mus musculus with 6 samples.

Results

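Interferon-induced restriction factors and nucleotide effectors are the proteins with which a macrophage blocks a virus at separate steps of its life cycle. They were described here in bone marrow-derived macrophages (BMDMs, macrophages derived in culture from marrow with the cytokine M-CSF) of wild-type mice, strain not given in the sources used here. Members were the genes of a list of 10 symbols, matched by gene name in the count tables. Of these 10 genes, 8 had a row among the 36706 entries of each table: Rsad2, Cmpk2, Samhd1, Bst2, Samd9l, Rtp4, Xaf1 and Isg20. The other 2, Mx1 and Mx2, are not analysed here. The 6 libraries were 3 of BMDMs given interferon-gamma (IFN-γ, dose not given) for 3 h and 3 of BMDMs left untreated, labelled with the same 3 h; all cells were grown with M-CSF at 20 ng/mL. The study's question was how IFN-γ switches on ACOD1, which produces itaconate. The labels do not say whether replicates were separate mice or separate wells, so a p-value here reflects only how far these libraries spread, which may be technical.

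As background, IFN-γ signals through its own receptor to transcription factors that bind gamma-activated sites (GAS) in DNA. Type I interferons activate a complex with STAT2 and IRF9 that binds the interferon-stimulated response element (ISRE), and interferon regulatory factors such as IRF1 bind the same element. Most of the genes described here are known first as targets of type I interferon. In macrophages SAMHD1 is known for keeping deoxynucleotides scarce, which starves retroviral reverse transcription, and viperin, the product of Rsad2, for turning CTP into a chain terminator of viral RNA synthesis.

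Total counts ran from 32628170 to 34233607 in the IFN-γ libraries and from 28133342 to 31173432 in the untreated libraries. All 8 macrophage markers examined were present, and they summed to between 32980 and 34223 TPM with IFN-γ and between 35243 and 38045 TPM untreated (TPM, a level scaled for exon length and library size). The 5 T cell markers summed to at most 1.39 TPM with IFN-γ and 1.60 TPM untreated, and Cd3e was at 0 counts in all 6 libraries. The 4 NK cell markers summed to at most 0.244 and 0.180 TPM, with Prf1 at 0. The 6 markers of plasmacytoid dendritic cells, the cells on which BST2 is best known as a surface antigen in mice, summed to between 3.50 and 4.44 TPM with IFN-γ and between 2.32 and 3.62 TPM untreated, with Klk1 at 0. The 6 neutrophil markers summed to between 530.1 and 552 TPM with IFN-γ and between 342 and 401 TPM untreated. S100a8 and S100a9 made up nearly all of these sums. Ly6g, Mpo, Elane and Camp reached at most 0.137, 1.21, 1.85 and 1.285 TPM in any library. The 4 dendritic cell markers summed to between 2.05 and 2.49 TPM with IFN-γ and between 0.557 and 0.843 TPM untreated. Whether these differences play a part in the results below was not tested. In bulk RNA, fewer cells of a type and less RNA per cell cannot be told apart.

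Promoter sequences are shown for 4 of the genes because they set the pair of neighbours that moved together, Rsad2 and Cmpk2, beside Samhd1, the gene that gained most transcripts, and Bst2, the gene that did not pass the test. RefSeq promoter windows of assembly GRCm38.p6 run from 250 bases before to 50 bases after each start site and matched 7 of the 8 genes; Rtp4 is named only. They were searched on both strands for the core of the ISRE (GAAA, any 2 bases, GAAA) and TTCNNNGAA, the core of a GAS. Capitals mark the matches, and each sequence runs 5′ to 3′ along the gene's own strand. The windows are chr12:26456403-26456702 (minus strand) for Rsad2, chr12:26468965-26469264 (plus strand) for Cmpk2, chr2:157135047-157135346 (minus strand) for Samhd1 and chr8:71537423-71537722 (minus strand) for Bst2.
Rsad2: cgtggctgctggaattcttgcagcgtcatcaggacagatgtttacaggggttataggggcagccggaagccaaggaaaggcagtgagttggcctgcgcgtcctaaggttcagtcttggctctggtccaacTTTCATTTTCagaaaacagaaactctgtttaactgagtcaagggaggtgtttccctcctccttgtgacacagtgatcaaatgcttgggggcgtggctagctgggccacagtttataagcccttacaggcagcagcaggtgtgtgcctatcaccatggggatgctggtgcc
Cmpk2: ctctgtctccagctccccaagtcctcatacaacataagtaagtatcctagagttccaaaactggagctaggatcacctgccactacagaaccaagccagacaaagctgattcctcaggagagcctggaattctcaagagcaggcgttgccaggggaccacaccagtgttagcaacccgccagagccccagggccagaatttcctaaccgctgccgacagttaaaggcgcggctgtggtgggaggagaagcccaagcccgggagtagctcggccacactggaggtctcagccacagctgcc
Samhd1: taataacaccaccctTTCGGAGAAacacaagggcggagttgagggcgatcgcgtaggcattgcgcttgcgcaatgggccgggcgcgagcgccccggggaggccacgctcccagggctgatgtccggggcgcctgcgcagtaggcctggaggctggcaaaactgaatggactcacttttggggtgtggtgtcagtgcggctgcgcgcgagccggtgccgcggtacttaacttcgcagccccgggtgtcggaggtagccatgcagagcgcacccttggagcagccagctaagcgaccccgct
Bst2: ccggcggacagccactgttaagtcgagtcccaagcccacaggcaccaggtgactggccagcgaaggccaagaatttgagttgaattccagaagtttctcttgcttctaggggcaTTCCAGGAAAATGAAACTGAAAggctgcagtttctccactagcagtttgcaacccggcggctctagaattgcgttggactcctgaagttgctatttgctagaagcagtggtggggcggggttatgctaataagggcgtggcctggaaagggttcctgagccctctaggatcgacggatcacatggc
The Rsad2 window held 1 ISRE core, read on the opposite strand as TTTCATTTTC, starting 120 bases before the start site. The Samhd1 window held a GAS core, TTCGGAGAA, starting 235 bases before it, and the Cmpk2 window held neither motif. The Bst2 window held a GAS core, TTCCAGGAA, that runs into 2 overlapping ISRE cores, GAAAATGAAA and GAAACTGAAA; these 3 matches start 136, 130 and 124 bases before the start site. Of the 3 windows listed for Isg20, 1 held a GAS core, and those of Samd9l and Xaf1 held neither motif. Among all 32851 windows of this length, 3.44% held the ISRE core, 8.3% the GAS core and 0.454% both. A match describes letters in a window and does not show that a factor binds there.

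IFN-γ raised 7 of the 8 genes, and 6 of them by at least 2 times. The neighbours Rsad2 and Cmpk2 rose 8.55-fold and 8.52-fold, Samhd1 rose 5.86-fold, and Xaf1, Rtp4 and Samd9l rose between 2.70-fold and 3.21-fold. Isg20 rose 1.87-fold at a low level, and Bst2, the most abundant of the 8, was at 1.14-fold and did not pass the test. A gene was called when edgeR's quasi-likelihood test gave an adjusted p under 0.05, with Benjamini-Hochberg adjustment over the 12968 genes tested; all 8 passed the filter on low counts. In the same fit 19.6% of all genes tested were called higher and 16.8% lower, 36.4% in either direction, and 6.17% were called higher by at least 2 times. The 8 genes had a median log2 fold change of 1.61, against -0.01 over all genes tested. For 7 of the 8, CPM (counts scaled to library size with TMM factors) did not overlap between the groups, which held for 50.1% of all genes tested. None of the 8 was called lower.

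**Figure D1:**
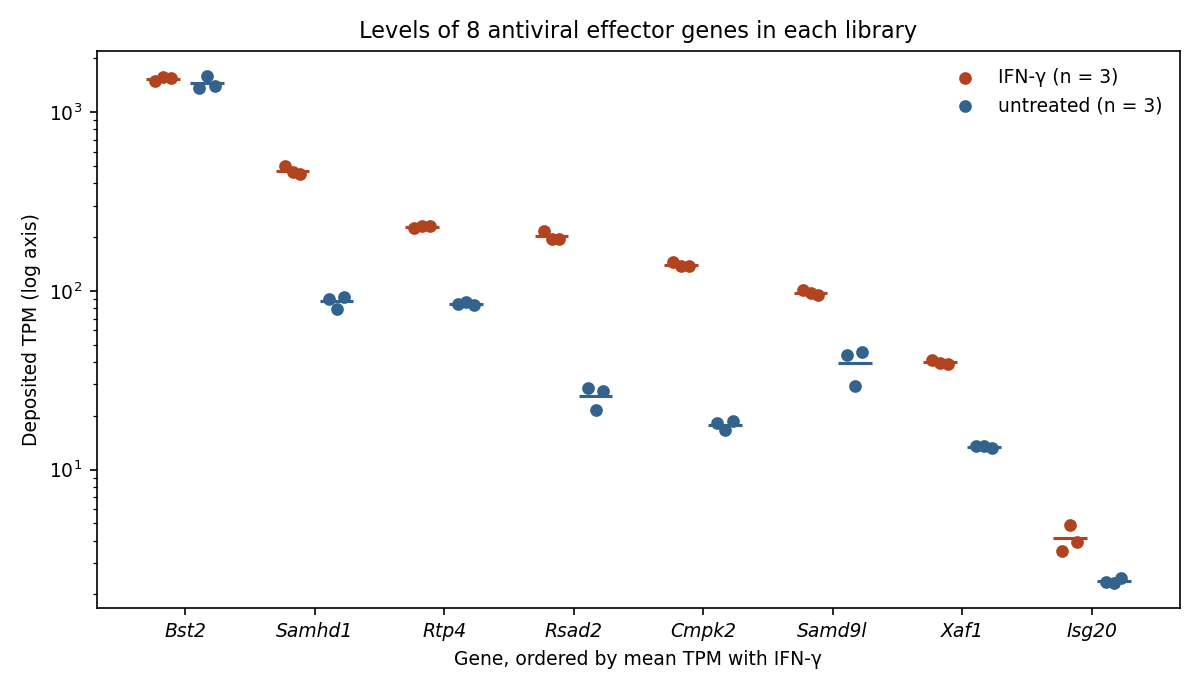
Deposited TPM (log axis) of the 8 genes in each library, with 3 IFN-γ libraries left of 3 untreated libraries for each gene; points are libraries and bars are means. The groups are apart for every gene except Bst2, whose untreated libraries reach 1593 TPM, above the 3 IFN-γ libraries at 1499 to 1565 TPM.

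The products of Rsad2 and Cmpk2 both act on pyrimidine nucleotides. CMPK2 is a mitochondrial kinase that phosphorylates pyrimidine monophosphates such as CMP, and viperin is a radical SAM enzyme that uses CTP as its substrate. Rsad2 was at 215, 196 and 196 TPM in the IFN-γ libraries, against 28.5, 21.6 and 27.4 TPM in the untreated libraries. Cmpk2 was at 145, 137 and 138 TPM with IFN-γ, against 18.2, 16.6 and 18.6 TPM untreated. For both genes every IFN-γ library lay far above every untreated library, and untreated replicate 2 was the lowest of the 6 in TPM. The log2 fold changes were 3.10 ± 0.07 for Rsad2 (SE; adjusted p = 2.05e-08, edgeR's quasi-likelihood test) and 3.09 ± 0.05 for Cmpk2 (adjusted p = 5.14e-09). They ranked 114th and 116th from the top among the 12968 genes tested.

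In the tables Rsad2 lies on chromosome 12 on the minus strand, from 26492742 to 26506451, with 6 exon blocks, and Cmpk2 on the plus strand from 26519121 to 26529836, with 5. The tables name no build, and their coordinates are not those of mm10, which the submitters' processing notes list; they are printed as given. No exon of the 8 genes overlaps an exon of another entry. The genes point away from each other across 12669 bases that hold no other entry. The ratio of Rsad2 to Cmpk2 counts within a library does not depend on how libraries are scaled. It was 1.64, 1.57 and 1.57 in the IFN-γ libraries and 1.72, 1.43 and 1.62 in the untreated libraries. The mean ratio was 1.59 ± 0.04 with IFN-γ and 1.59 ± 0.15 untreated (SD, n = 3 each), and the untreated values spanned the IFN-γ values. The difference in log2 ratio was 0.01 (exact permutation test, two-sided, p = 0.9, where 3 libraries against 3 cannot go below 0.1), and it lay between -0.07 and 0.07 when any 1 library was left out.

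Samhd1, which cuts deoxynucleoside triphosphates and so limits retroviruses in myeloid cells, was at 500.3, 459.9 and 452.5 TPM with IFN-γ, against 90.2, 79.0 and 92.8 TPM untreated. All 3 IFN-γ libraries lay far above all 3 untreated libraries. Its log2 fold change was 2.55 ± 0.06 (SE; adjusted p = 1.95e-08, edgeR's quasi-likelihood test), 166th among the genes tested. With a difference in means of 384 TPM, Samhd1 had the largest gain in level of the 8 genes, ahead of Rsad2 at 177 TPM, Rtp4 at 143 TPM and Cmpk2 at 122 TPM. Among tested genes it stood above 93.6% by CPM in untreated cells and above 99.2% with IFN-γ. The tables place it on chromosome 2, minus strand, from 156939454 to 156977016, with 18 exon blocks.

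Bst2 encodes tetherin, a membrane protein that holds budding virions at the cell surface. It was at 1499, 1565 and 1547 TPM in the IFN-γ libraries, against 1367, 1593 and 1399.9 TPM in the untreated libraries. The groups overlapped, since untreated replicate 2 was the highest of the 6 libraries while the other 2 untreated libraries were the lowest. The log2 fold change was 0.19 ± 0.11 (SE; adjusted p = 0.225, edgeR's quasi-likelihood test). Without untreated replicate 2 it was 0.33 ± 0.06 and was called (adjusted p = 0.00134). Bst2 stood above 98.1% of tested genes by CPM in untreated cells and above 98.0% with IFN-γ. The tables place Bst2 on chromosome 8, minus strand, from 71986899 to 71990116, with 5 exon blocks.

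With 808 bases of exon, Bst2 is the shortest of the 8 genes, and untreated replicate 2 was the library with the steepest trend on exon length. Against the mean of the other untreated libraries, its log2 CPM changed by -0.13 per doubling of exon length over all genes tested, while the same slope ran from -0.03 to 0.09 in the other 5 libraries against their own groups. The tenth of genes with the shortest exons, with a median of 914 bases, had a median log2 ratio of 0.31 in this library. Bst2 had 0.39. When each library's trend on length was removed, an alternative chosen after seeing the data, the log2 fold change of Bst2 was 0.24 ± 0.04 and was called (adjusted p = 0.00177), with all 6 libraries kept. The part of exon length in the Bst2 result was not tested. Samd9l, with 5473 bases of exon, had a log2 ratio of -0.41 in the same library, below the -0.16 of the tenth of genes with a median of 6096 bases. Rtp4, Xaf1, Isg20, Cmpk2 and Samhd1 lay above the trend, at 0.22, 0.21, 0.12, 0.04 and -0.02. Rsad2 lay below it, at -0.18.

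**Figure D2:**
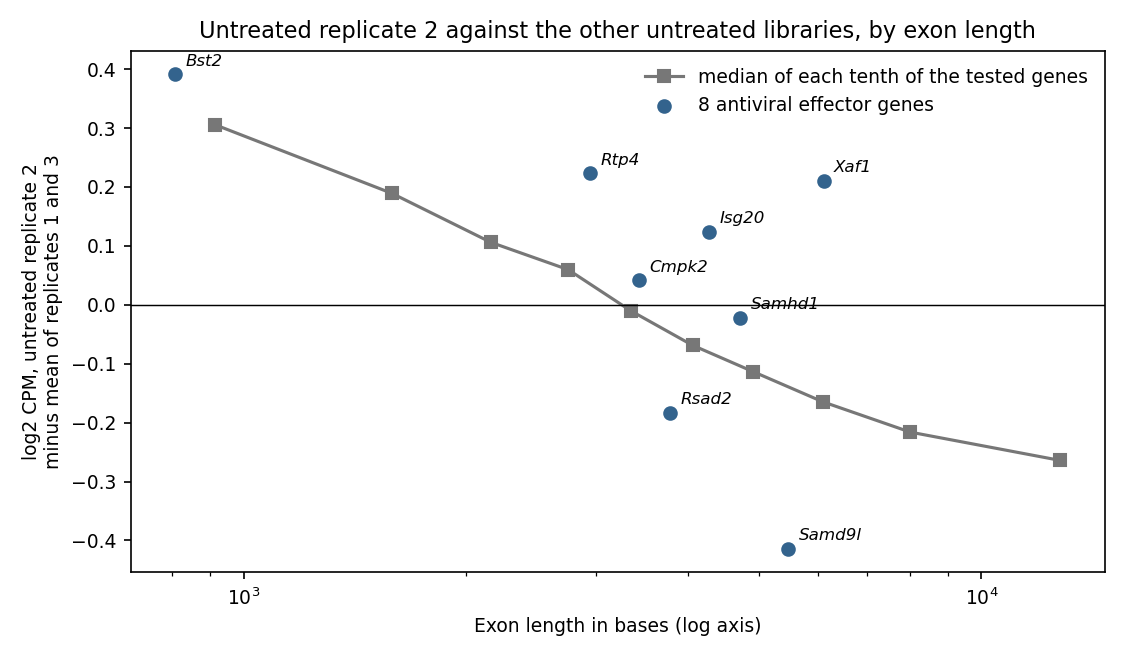
Log2 CPM of untreated replicate 2 minus the mean of untreated replicates 1 and 3, against exon length (log axis); squares are medians of 10 bins of the genes tested and points are the 8 genes. The medians run from 0.31 at the short end to -0.26 at the long end, with Bst2 at 0.39 and Samd9l at -0.41.

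Samd9l, Xaf1 and Rtp4 formed a middle group. Samd9l, a restriction factor of poxviruses, was at 101, 97.7 and 94.7 TPM with IFN-γ, against 44.0, 29.5 and 45.7 TPM untreated. Its untreated spread, 22.4% of the mean, was the widest of the 8 genes and came from untreated replicate 2. The log2 fold change was 1.43 ± 0.11 (SE; adjusted p = 2.31e-05, edgeR's quasi-likelihood test), and 1.31 ± 0.05 without that library. Xaf1, whose product binds and opposes the caspase inhibitor XIAP, was at 41.2, 39.2 and 39.0 TPM with IFN-γ, against 13.5, 13.6 and 13.2 TPM untreated. Its log2 fold change was 1.68 ± 0.07 (adjusted p = 6.86e-07). Rtp4, a chaperone of G protein-coupled receptors that is also known to restrain flaviviruses, was at 224, 229 and 229 TPM with IFN-γ, against 84.5, 86.2 and 83.8 TPM untreated. In TPM, Rtp4 had the tightest replicates with IFN-γ, with an SD of 1.3% of the mean, and Xaf1 had the tightest untreated, at 1.36%. The log2 fold change of Rtp4 was 1.54 ± 0.08 (adjusted p = 2.03e-06). In the tables Samd9l lies on chromosome 6 from 3372257 to 3399571 (minus strand), Xaf1 on chromosome 11 from 72192229 to 72204560 (plus strand) and Rtp4 on chromosome 16 from 23338976 to 23432972 (plus strand). Of the 50-base stretches in GENCODE transcripts of Rtp4, 11.6% occurred in another gene, mainly Gm45338, so its count is uncertain to an extent that these shares do not fix; the other 7 genes shared at most 1.7%.

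Isg20, an exonuclease that degrades single-stranded RNA, was the least abundant of the 8. It was at 3.49, 4.91 and 3.94 TPM with IFN-γ, from 233, 327 and 268 counts, against 2.36, 2.33 and 2.48 TPM untreated, from 134, 148 and 157 counts. The groups were apart, but the IFN-γ libraries spread more widely, with an SD of 17.6% of the mean against 3.24% in the untreated libraries. The log2 fold change was 0.90 ± 0.15 (SE; adjusted p = 0.00188, edgeR's quasi-likelihood test). In untreated cells 25.5% of tested genes had a lower CPM than Isg20, and with IFN-γ 33.3% did. The tables place it on chromosome 7, plus strand, from 78561136 to 78570144, with 4 exon blocks.

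**Figure D3:**
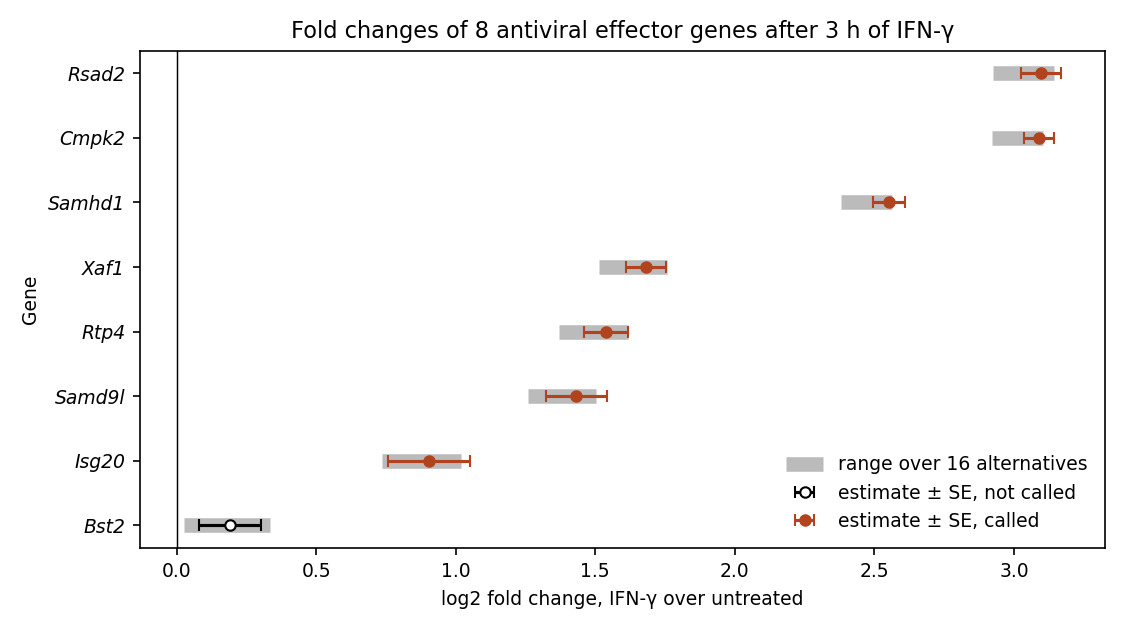
Log2 fold change of each gene, IFN-γ over untreated, as points with standard errors; grey bars span the values under 16 alternative settings, and an open point marks the gene that was not called. The 7 called genes stay above 0.73 under every setting, and Bst2 runs from 0.03 to 0.33.

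The order of the levels per length changed little. With IFN-γ it ran Bst2, Samhd1, Rtp4, Rsad2, Cmpk2, Samd9l, Xaf1 and Isg20, and no 2 neighbours in that order had overlapping library ranges. In untreated cells Samd9l stood above Rsad2 and Cmpk2, and Samhd1 and Rtp4 did not differ beyond their spread, at 87.3 ± 7.30 and 84.8 ± 1.27 TPM (SD, n = 3). Bst2 held most of the summed level of the 8 genes in both groups. Leaving it out, the other 7 summed to between 1153 and 1230 TPM with IFN-γ and between 249 and 284 TPM untreated.

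Genes that carry the interferon signal moved in the same libraries. Of 20 genes of the receptors, kinases, STATs, IRFs and feedback inhibitors, 18 rose and 1 fell. Over all genes tested, 19.6% were called higher and 16.8% lower. Of the 18, 9 rose by at least 2 times, where 6.17% of all genes tested were called higher by as much. The list had a median log2 fold change of 0.96. Irf1 rose to 562 ± 27.1 TPM with IFN-γ, against 21.5 ± 1.45 TPM untreated (SD, n = 3 each), a log2 fold change of 4.83 ± 0.06. Of the inhibitors that damp the signal, Socs1 rose by 4.94 ± 0.11 and Socs3 by 4.54 ± 0.07 on the log2 scale. Among the parts of the complex that binds the ISRE, Stat2 rose by 1.82 ± 0.08 and Irf9 by 0.45 ± 0.05. Irf7, which amplifies type I interferon responses, rose by 0.94 ± 0.07. The gene that fell was Ifngr1, the ligand-binding chain of the IFN-γ receptor, at -0.35 ± 0.05; it is named here because it was the 1 gene called lower. With upper quartile scaling 15 genes of this list were called higher, with total counts alone 14, and 2 were called lower with either.

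Interferon transcripts themselves were scarce. Of 21 interferon genes, 19 had 0 counts in all 6 libraries, which allows up to 3 counts in each, and Ifng was among them. Ifnb1 had 12, 15 and 15 counts with IFN-γ, against 1 count in each untreated library. It was called higher (adjusted p = 0.000335, edgeR's quasi-likelihood test), with no fold given at these counts. Ifnk had 1 count in IFN-γ replicate 3 and 1 in untreated replicate 1.

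Most other restriction factors rose too. Of 22 on the list, 21 were tested, 18 rose and none fell, where 19.6% of all genes tested were called higher and 16.8% lower. The median log2 fold change was 0.98. Zbp1, which senses nucleic acids in the Z form, rose by 3.16 ± 0.11 on the log2 scale, the cytidine deaminase gene Apobec3 by 2.27 ± 0.05 and Trim21, a cytosolic antibody receptor, by 1.73 ± 0.07. The exonuclease gene Trex1 had 0 counts in every library, and 99.9% of its exon bases lie in the read-through entry Atrip-trex1, so its level is not given. With upper quartile scaling or total counts alone, 1 gene of this list was called lower. Of the 6 Ifit genes, which encode proteins that bind viral RNA, all rose by at least 2 times, with a median of 2.04. A rise of at least 2 times was called for 6.17% of all genes tested. Ifit2, Ifit1 and Ifit3 rose by 3.97 ± 0.07, 2.50 ± 0.07 and 2.41 ± 0.08. The difference between these lists and the 8 genes was not tested.

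**Figure D4:**
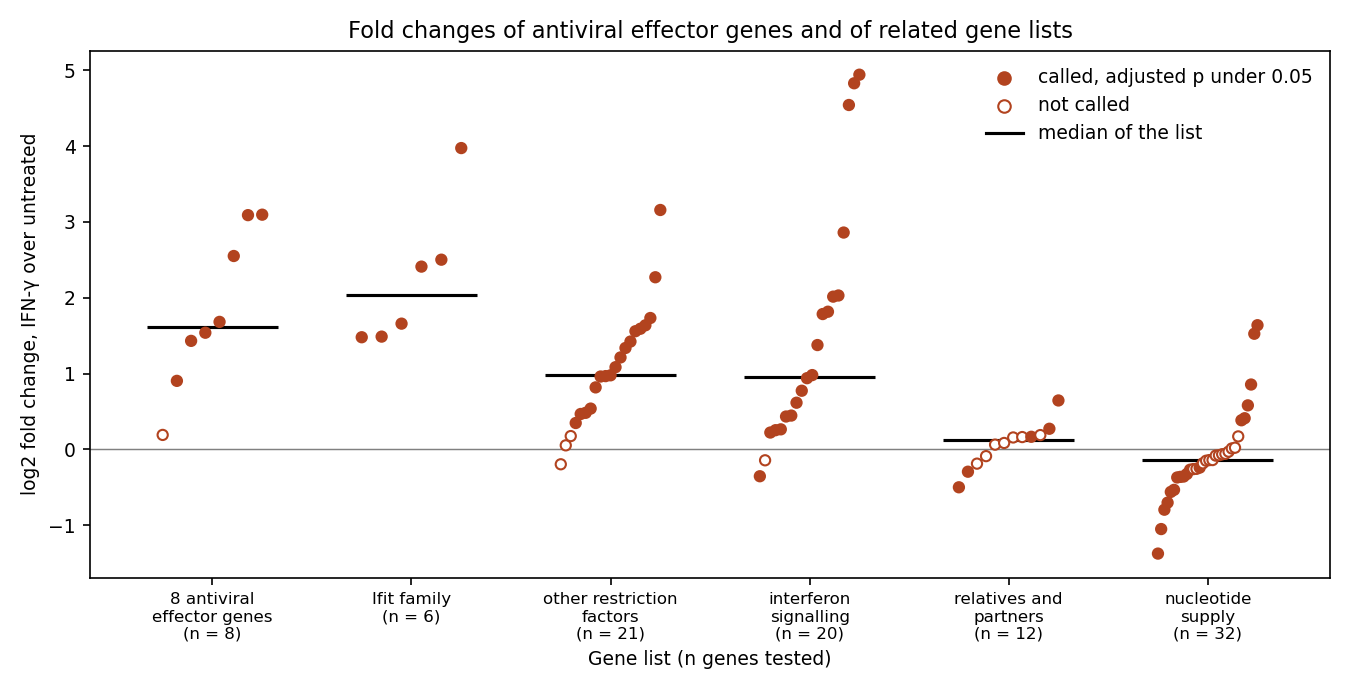
Log2 fold change, IFN-γ over untreated, of every tested gene among the 8 genes and in 5 related lists; filled points were called, open points were not, and black bars are medians. The medians are 1.61 for the 8 genes, 2.04 for the Ifit family, 0.98 for other restriction factors and -0.14 for nucleotide supply.

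Genes that supply or clear nucleotides, the pools on which SAMHD1, CMPK2 and viperin act, were called in both directions. Of 32 tested, 6 rose, 12 fell and 14 were not called. Over all genes tested, 19.6% were called higher, close to the share of this list that rose, and 16.8% lower. The median log2 fold change of the list was -0.14. Without IFN-γ replicate 3, 7 fell, while 16 fell with upper quartile scaling and 18 with total counts alone. Pnp, the purine nucleoside phosphorylase gene, rose by 1.64 ± 0.09 on the log2 scale, and Nt5c3, a pyrimidine nucleotidase gene, by 1.53 ± 0.10. Dctd, which deaminates dCMP, had a log2 fold change of -1.05 ± 0.09. The following were chosen for their roles after their values were seen. Ctps, which makes CTP, was at 15.4 ± 0.837 TPM with IFN-γ and 27.2 ± 2.27 TPM untreated (SD, n = 3 each), a log2 fold change of -0.70 ± 0.06 (adjusted p = 3.17e-05, edgeR's quasi-likelihood test). Ctps2, which also makes CTP, was at 19.6 ± 0.792 TPM with IFN-γ and 21.0 ± 1.07 TPM untreated. It was not called, with a log2 fold change of 0.02 ± 0.05 (adjusted p = 0.766, same test). Uck2, a uridine-cytidine kinase, had -0.79 ± 0.06, while Cmpk1, the cytosolic relative of Cmpk2, rose by 0.39 ± 0.06. Cmpk1 was the more abundant of the 2 relatives, at 385 ± 2.19 TPM with IFN-γ and 320.2 ± 8.22 TPM untreated. On the deoxynucleotide side, Dck, the deoxycytidine kinase gene, rose by 0.86 ± 0.05, and Rrm2, a subunit of ribonucleotide reductase, had a log2 fold change of -0.37 ± 0.05. Rrm1, the other subunit, had -0.14 ± 0.05 (adjusted p = 0.0812); it was called lower under 5 of the 16 alternatives, among them the fit without untreated replicate 2.

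Most relatives and partners of the 8 genes that were tested were not called. Of 17 listed, 12 were tested, of which 3 rose, 2 fell and 7 were not called. The share called was close to that over all genes tested, which was 36.4% in either direction, 19.6% higher and 16.8% lower. None of the list rose by 2 times or more, and its median log2 fold change was 0.12. Mocs1, another radical SAM enzyme gene, rose by 0.65 ± 0.07 on the log2 scale, while Tyw1 and Elp3, also radical SAM enzymes, had -0.50 ± 0.07 and -0.29 ± 0.06. The radical SAM enzyme genes Lias, Cdkal1 and Cdk5rap1 were not called, at -0.09 ± 0.07, 0.09 ± 0.10 and -0.19 ± 0.10. With upper quartile scaling or total counts alone, 1 gene of this list was called higher and 4 lower, and with the length trend removed 6 were higher. Xiap, the partner of XAF1, was at 9.23 TPM with IFN-γ and 8.87 TPM untreated, a log2 fold change of 0.19 ± 0.11 (adjusted p = 0.236). The Rtp4 relatives Rtp1, Rtp2 and Rtp3 had 0 counts in all 6 libraries.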

How the data were processed

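Each table gives a gene's exon coordinates, exon length, count, TPM and FPKM, per the file headers. Whole-number raw counts were deposited by the authors. The TPM deposited by the authors differ by at most 7.3e-11 from TPM computed here out of counts and exon lengths; they describe levels. Reads were aligned with HISAT2 to mm10, per the submitters' processing notes; the library kit marks strand, per the labels' protocols. The sources used here do not give the counting tool, its strand setting or its handling of multi-mapping reads. Of 35272 symbols shared with RefSeq's GRCm38.p6 table, 1.7% had the same start and end.

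Counts were tested with edgeR 4.0.16 in R 4.3.3 (filterByExpr with minimum count 10 and minimum total 15, TMM scaling, glmQLFit, glmQLFTest, two-sided, threshold 0.05). Standard errors were derived from the F statistic and the log2 fold change. The fit was tested on simulated data. Alternatives used limma 3.58.1 and DESeq2 1.42.0, other scalings and filters, and each library left out. The pair ratio added 0.5 to each count. The labels name no molecular identifiers, so the floor of 3 counts covers counting error only. No replicate pair agreed within sampling noise (lowest chi-square per degree of freedom 1.97, highest 74.4).

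The members and the 7 gene lists, of 131 genes, were chosen with earlier results of these data known. Named were all members, Stat2, Irf1, Irf7, Irf9, Ifnb1 and Ifng, and per list up to 3 called genes of at least 1 CPM, taken by size of change, or else its 2 most abundant genes; other genes are said to be chosen after their values were seen. Xiap, Lias, Cdkal1, Cdk5rap1, Rtp1, Rtp2, Rtp3 and Trex1 were chosen in that way too. Some results under this rule, and 1 list, are not reported here.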

Additional observations from a re-analysis of the deposited data

How the results depend on the processing

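Under 16 alternatives, the 7 genes called higher (Rsad2, Cmpk2, Samhd1, Samd9l, Rtp4, Xaf1 and Isg20) kept their direction and their call, and Bst2 was the 1 gene of the 8 whose call changed. It was called without untreated replicate 2 (0.33) and with the length trend removed (0.24). Over all genes, 4097 were lower with upper quartile scaling, 1666 were higher and 4520 lower with total counts alone, and 1242 were lower at a threshold of 0.01, against 2539 higher and 2176 lower in the fit as reported. The share of calls that were higher was 53.8% as reported, 30.6% with upper quartile scaling and 26.9% with total counts. These scalings moved the median log2 fold change of all genes to -0.16 and -0.18. With any 1 library left out, between 1991 and 3174 genes were higher and between 1451 and 2793 lower. The difference in the log2 ratio of Rsad2 to Cmpk2 ran from -0.067, without untreated replicate 2, to 0.0694 over left-out libraries and was -0.0117 when IFN-γ replicate 1 was left out, against 0.009 with all 6; the cause was not tested. With a stricter ISRE motif, the core followed by CT, 1 member window matched in place of 2. The replicate block gave 2723 genes higher and 2327 lower and the same 7 members called. Same-numbered libraries correlated at 0.486, 0.294 and -0.185 in their deviations from group means, and differently numbered ones at between -0.519 and 0.389. Whether the numbers pair the libraries was not tested, and the fit as reported used no pairs. The planned ratio of Mx1 to Mx2 was not run. Isg20 had the lowest counts and the largest standard error of the 8 genes, and whether its counts set that error was not tested. Low counts leave Ifnb1 with no usable fold, and 3 libraries a group cannot give an exact permutation p below 0.1.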

Other observations

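The nearest tested genes on either side of each of the 8 genes, chosen by position after values were seen, gave 14 neighbours other than Rsad2 and Cmpk2 themselves. Over all genes tested, 19.6% were called higher, 16.8% lower and 36.4% in either direction. Of the 14 neighbours, 5 were called higher, 1 lower and 8 not at all. The largest fitted change was that of Masp1, whose span overlaps that of Rtp4; it was called higher (adjusted p = 0.000938, edgeR's quasi-likelihood test) at 0.176 TPM with IFN-γ and 0.0163 TPM untreated, levels too low for a fold to be given. Beside Rsad2 lay Rnf144a, at 0.329 TPM with IFN-γ and 0.380 TPM untreated, with a log2 fold change of -0.09 ± 0.23 (adjusted p = 0.808, edgeR's quasi-likelihood test). The neighbour of Samd9l, the predicted gene Gm20559, rose by 1.14 ± 0.05 on the log2 scale, to 61.6 TPM with IFN-γ, against 30.5 TPM untreated, and shared 0.43% of the 50-base stretches of Samd9l. Isg20 lies 178 bases from Aen, another exonuclease gene, which rose by 0.27 ± 0.06 and was not called when scaled by upper quartiles (0.13) or by total counts alone (0.10). Rbl1, beside Samhd1, rose by 0.45 ± 0.11. Bst2 lies between Mvb12a, at -0.05 ± 0.11 (adjusted p = 0.771), and Gtpbp3, which fell with a log2 fold change of -0.30 ± 0.07.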
